A study of Homo sapiens with 18 samples.

Results

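The set described here holds the genes whose 5′ UTRs were occupied by ribosomes in proliferating IMR90 cells. A gene was a member if its 5′ UTR held at least 30 ribosome footprints and at least 30 mRNA-seq reads, each summed over young replicates 2 and 3. In all, 286 of 38716 gene symbols met this rule, after 5 genes were left out by name. Of 293 genes with enough footprints, 2 more were left out for too few mRNA-seq reads. At the edge of the rule, CIAO2A, SIPA1L3, CDIPT and HNRNPF had 30 footprints each, while PLXNB2 had 29.5 and FBN1, TPGS2 and C11orf58 had 29. Among the members, PAPPA with 57 and IBTK with 66 had the fewest mRNA-seq reads over the 5′ UTR.

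Ribosome profiling (Ribo-seq, which sequences mRNA fragments shielded by ribosomes from nuclease) was carried out beside mRNA-seq in IMR90, primary human fetal lung fibroblasts grown from single isolates. The young condition is wild-type IMR90 of low passage that still proliferated. The old condition is wild-type IMR90 of high passage that had entered replicative senescence. The ICM condition is low-passage IMR90 exposed for several days to inflachromene, a compound known to bind the architectural chromatin factors HMGB1 and HMGB2, at a dose that the labels do not give. Each condition had 3 replicates in each assay, or 18 libraries in all. Replicates were grown independently, according to the study's methods. The study's text states that senescence data had been generated earlier than the ICM data, and such a difference in time cannot be told apart from the condition.

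A ribosomal subunit loads near the cap of an mRNA and scans the 5′ UTR until it meets a start codon. Where an ATG precedes the main start codon, ribosomes can translate a short upstream open reading frame (uORF), which often keeps them from the coding sequence (CDS). Under stress that limits initiation, this arrangement is known to let mRNAs such as those of ATF4 and ATF5 be translated, because scanning ribosomes pass their inhibitory uORFs.

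Depth set the limits of these data. CDS footprints per library ran from 46239 to 1718521, and only young replicates 2 and 3 and old replicate 1 had 10 or more 5′ UTR footprints in over 200 members. At least 1 such footprint was seen in 286 of the 286 members in both young replicates 2 and 3, in 284, 146 and 253 members in old replicates 1 to 3, and in 159, 95 and 116 members in ICM replicates 1 to 3. Young replicate 1 and old replicate 2 stood apart, with 52.5% and 45.2% of all their reads in non-coding RNA against 4.75% to 23.9% in the other libraries. The 5 genes left out held between 20.6% and 98.1% of all 5′ UTR footprints of a library. In mRNA-seq, 8 fibroblast markers summed to 25780 to 33008 CPM (reads scaled to a common library total) in young and old libraries and to 12591 to 12874 in ICM libraries. The summed level of 3 smooth muscle markers was 805 to 1139 CPM in young and old and 95.6 to 98.5 in ICM, and that of 5 epithelial markers 231 to 340 and 45.5 to 52.4. The 4 endothelial markers summed to at most 4.73 CPM and the 4 immune markers to 19.8 to 67.3, with CDH5 and CD3E at 0 throughout and KDR at 0 in old. The part of these levels in the results was not tested.

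The sequences around the upstream ATG triplets show what many of these 5′ UTRs carry. They are given for members of a list of genes known for regulatory uORFs, and for 4 fibrillar collagen genes whose 5′ UTRs hold an ATG at the same distance from the main start. Each run was read 5′ to 3′ from the spliced transcript, on the strand of the gene, with the upstream ATG in capitals.
ATF4 frame of 3 codons: tccacggccaccATGgcgtattagggg
ATF4 frame of 59 codons: gcggcttaagccATGgcgcttctcacg
ATF5 frame of 3 codons: gtagccccggccATGgctctgtagcct
ATF5 frame of 59 codons: cttgctgcagccATGgagtcttccact
SLC35A4 frame of 103 codons: tcggcggggaagATGgcggatgacaag
PPP1R15B frame of 51 codons: ttccccgccaggATGgaagtcgcatca
MKKS frame of 63 codons: tgctgaagtactATGagccttcggaac
IBTK frame of 42 codons: ctttgtggctctATGtggaccctgcgg
COL1A1 frame of 4 codons: caaagagtctacATGtctagggtctag
COL1A2 frame of 4 codons: caaggagtctgcATGtctaagtgctag
COL3A1 frame of 4 codons: acaaagagtctcATGtctgatatttag
COL5A2 frame of 4 codons: aggagaacccacATGtctaatatttag

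In GRCh37 coordinates, with the MANE Select transcripts of GENCODE release 44 lifted to that build, both ATF4 triplets lie in its 5′ UTR on the plus strand, at chr22:39916653-39916655 and chr22:39916752-39916754. ATF4 encodes the main transcription factor of the integrated stress response. Those of the related factor ATF5 lie in its 5′ UTR on the plus strand, at chr19:50432531-50432533 and chr19:50432653-50432655. In both genes the frame of 59 codons ran past the main start codon, out of frame with the CDS. The SLC35A4 triplet lies at chr5:139944429-139944431 on the plus strand. SLC35A4 encodes a nucleotide sugar transporter-like protein, and the frame of 103 codons ended within the 5′ UTR. The triplet of PPP1R15B, a regulatory subunit of the phosphatase that acts on eIF2α, is at chr1:204380768-204380770 on the minus strand. MKKS encodes a chaperonin-like protein and IBTK an inhibitor of Bruton's tyrosine kinase, and their triplets are at chr20:10401383-10401385 and chr6:82957322-82957324, both on the minus strand and in the 5′ UTR.

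The collagen triplets lie in 5′ UTR exons at chr17:48278889-48278891 on the minus strand (COL1A1), chr7:94024327-94024329 on the plus strand (COL1A2), chr2:189839199-189839201 on the plus strand (COL3A1) and chr2:190044345-190044347 on the minus strand (COL5A2). Each began 17 bases before the main ATG and opened a frame of 4 codons. These genes encode chains of the fibrillar collagens type I, type III and type V.

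Ribosome occupancy was given length-free as a double ratio, the ratio of 5′ UTR to CDS footprints divided by the same ratio of mRNA-seq reads. A value of 1 means that footprints were as dense in the 5′ UTR as in the CDS, relative to the RNA. In young replicates 2 and 3 together, the median double ratio of 283 members was 0.449, with quartiles of 0.202 and 1.04. It ran from 0.0081 to 59.1, exceeded 1 in 74 members and lay below 0.1 in 38. The other 3 members, LUZP6, KCNMB3 and TBC1D3E, had no CDS footprints and no ratio. Over the 3′ UTRs of 273 members the same measure had a median of 0.008. Pooled over the members of a library, it was 0.0093 to 0.101 in young, 0.0239 to 0.265 in old and 0.0090 to 0.0218 in ICM. In old replicate 2 this value, 0.265, exceeded the pooled 5′ UTR value of 0.140. Because the young 5′ UTR footprints chose the members, these values are a description.

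The footprint part of this measure, not yet divided by mRNA-seq reads, was repeatable between libraries. The log2 ratios of 5′ UTR to CDS footprints of young replicates 2 and 3 correlated with r = 0.956. This was over the 223 members with at least 10 5′ UTR footprints and 10 CDS footprints in each. Those of young replicates 2 and 3 and of old replicates 1 and 3, libraries the rule did not use, correlated with r = 0.941 over 238 members. These correlations are across genes, which share libraries and base composition and are not independent replicates. Each gene also keeps its region lengths in this ratio, and the repeatability of the double ratio itself was not computed. The footprint ratio in old was lower than in young for 198 of the 238 members and higher for 40, with a median quotient of 0.528. The young footprints chose the members, which can raise the young ratios, so these counts are a description. Within young, replicate 3 was lower than replicate 2 for 163 of 223 members and higher for 60, with a median quotient of 0.796. Within old, replicate 3 was lower than replicate 1 for 22 of 32 members and higher for 10, with a median quotient of 0.719.

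**Figure D1:**
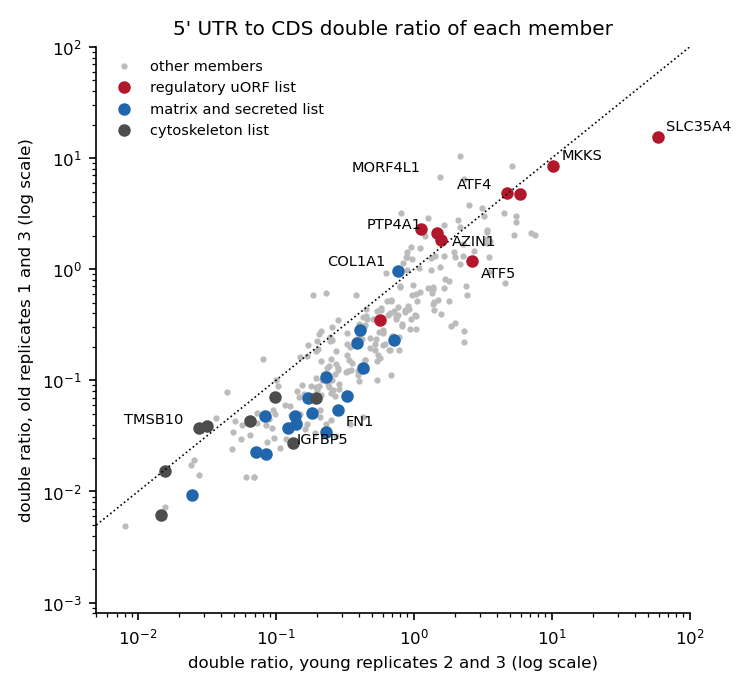
Double ratio of 5′ UTR to CDS footprints over mRNA-seq reads of each member with values above 0, in young replicates 2 and 3 (horizontal, log scale) and old replicates 1 and 3 (vertical, log scale); the dotted line marks equal values and colours mark 3 gene lists. The median double ratio is 0.449 over 283 members in young, whose footprints chose the members, and 0.236 over 284 members in old.

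The genes of the uORF list that were members had mostly high double ratios. Of 21 listed genes, only 9 were members, each through its young 5′ UTR footprints, namely ATF4, ATF5, PPP1R15B, IBTK, SLC35A4, AZIN1, EIF5, PTP4A1 and MKKS, and their median double ratio in young was 2.65 against 0.449 over all members. Pooled over the whole list, members or not, the double ratio was 0.944. SLC35A4 had 63 5′ UTR footprints and 1 CDS footprint in young replicates 2 and 3, which gave the highest value of all, 59.1. In old replicates 1 and 3 the value was 15.5, and in the ICM libraries together it was 6.68, on 22 5′ UTR and 3 CDS footprints. MKKS followed at 10.2 in young and 8.41 in old, with no CDS footprint in ICM. Few CDS footprints stand behind both ratios, so the exact values are poorly determined.

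ATF4 was the best-covered uORF gene. Its 5′ UTR held 11, 155 and 264 footprints in young replicates 1 to 3, 233, 6 and 35 in old replicates 1 to 3, and 6, 5 and 5 in ICM replicates 1 to 3. Its CDS held 6, 55 and 143, then 95, 3 and 22, then 0, 5 and 2. The 5′ UTR share of these footprints stood at 67.8% (95% exact binomial interval 64.0% to 71.4%) in young, 69.5% (64.7% to 74.1%) in old and 69.6% (47.1% to 86.8%) in ICM, each over 3 pooled libraries. The 3 intervals overlap, and the ranges of the replicates overlap too. Its double ratio stood at 4.74 in young, 4.87 in old and 4.06 in ICM. The interval in ICM is wide, so a moderate shift would not have been detectable at this depth.

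PTP4A1, a protein tyrosine phosphatase, and AZIN1, which holds back the inhibitor of polyamine synthesis, showed the same high occupancy. Of PTP4A1 footprints, the part in the 5′ UTR stood at 60.3% in young, 70.0% in old and 78.6% in ICM, and that of AZIN1 was 39.9%, 47.7% and 26.4%. For AZIN1 the ICM replicates, between 23.1% and 33.3%, all lay below the old replicates, between 40.0% and 48.9%. The log2 ratio of AZIN1 differed by −2.14 between ICM and old (SE 0.70), and with an adjusted p of 0.0711 in edgeR it was not called. The median of all 178 genes tested was −1.27 in the same comparison, in which each region was scaled on its own. With both regions scaled by one library total that median was −0.43, so the AZIN1 value cannot be read apart from the scaling. ATF5 had a double ratio of 2.65 in young, 1.19 in old and 1.20 in ICM, on 31, 28 and 11 5′ UTR footprints over 3 libraries each. EIF5, the initiation factor that triggers GTP hydrolysis at the start codon, had values of 0.567, 0.352 and 0.891, so that in young it lay below the upper quartile of the members.

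Other members with at least 100 footprints and high double ratios included TP53I11 at 2.16 and PTP4A2 at 1.55 in young. The growth factors FGF7 and BDNF had values of 1.38 and 0.974, and AP2M1, a subunit of the clathrin adaptor, had 0.835. In old replicates 1 and 3, TP53I11 had 2.40, PTP4A2 1.86, BDNF 1.23 and AP2M1 1.13, while FGF7 had 0.489. ACYP2 reached 7.08 in young and 2.13 in old, with 390 5′ UTR and 10 CDS footprints in young replicates 2 and 3. Its 5′ UTR counts were in part fractions, as reads shared between features would give. So were those of IGFBP5, VPS53, RBFOX2 and ATAD5, which also ranked among the 10 members with most footprints.

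The lowest values among members with at least 100 footprints belonged to TMSB10 at 0.028, TMSB4X at 0.064, TUBB at 0.094, IGFBP5 at 0.123 and CLDN11 at 0.130. TMSB10 and TMSB4X encode small proteins that bind monomeric actin, and TUBB a β-tubulin. IGFBP5, which binds insulin-like growth factors, had the most 5′ UTR footprints of all members, 2460.5 in young replicates 2 and 3, yet 24558.5 in its CDS. TOP mRNAs, which encode ribosomal proteins and elongation factors behind a terminal oligopyrimidine tract, gave 9 members of 92 listed genes and a median of 0.0645. The 8 cytoskeleton members of 32 listed genes had a median of 0.0481, and the 18 matrix and secreted members of 39 listed genes found in the tables had a median of 0.208.

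Upstream ATG triplets and 5′ UTR length, neither of which the rule named, were then counted. Of the 279 members with an annotated transcript, 178 (63.8%) had at least 1 upstream ATG, against 41.1% of 7059 annotated genes with at least 30 mRNA-seq reads over the 5′ UTR. The median 5′ UTR was 284 bases long in members and 149 in those genes, and a minimum of reads favours long 5′ UTRs, which hold more ATG triplets. Per 1000 bases, members held 6.58 upstream ATG triplets, against 5.21 over the 7059 genes. Among annotated members with a double ratio above 1, 69 of 72 (95.8%) had an upstream ATG, and 39 (54.2%) had one with a purine 3 bases before it and a G after it, the strong initiation context. Among those below 0.1, 2 of 37 (5.41%) had an upstream ATG and none had one in strong context. The density of upstream ATG triplets was 9.19 per 1000 bases in the first group and 0.381 in the second. The median 5′ UTR was 458.5 bases long in the first group and 107 in the second. Both groups were cut on double ratios from the young libraries that chose the members, so this contrast is a description.

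The double ratio was higher in members with upstream ATG triplets than in those without. In young its median was 0.170 over 101 members with none, 0.695 over 48 with 1, 0.679 over 71 with 2 to 3, and 1.21 over 57 with 4 or more. In old replicates 1 and 3, not used by the rule, but over genes chosen by young footprints, the medians were 0.0545, 0.338, 0.346 and 0.599. In the 3 ICM libraries together they were 0.0292, 0.123, 0.269 and 0.209. Spearman's rho between the number of ATG triplets and the double ratio was 0.662 in young and 0.637 in old over 277 members, and with 5′ UTR length it was 0.454 and 0.400. CDS depth went with the double ratio among members. In young replicate 3 the 38 members below 0.1 held 128676 CDS footprints and the 74 above 1 held 10202.5. The part of this link, and of the choice by young footprints, in these medians was not tested.

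Within bands of 5′ UTR length, members with an upstream ATG again had the higher medians, over the same chosen genes. In old, among 5′ UTRs of up to 150 bases the median was 0.436 in 20 members with an upstream ATG and 0.0457 in 35 without. In the next band, up to 300 bases, it was 0.271 in 44 members with and 0.0512 in 49 without. From there to 600 bases it was 0.394 in 68 members with and 0.152 in 12 without. Over 600 bases only 5 members lacked an upstream ATG. A matching ATG does not show that a ribosome starts there, since these tables give no positions within a 5′ UTR.

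**Figure D2:**
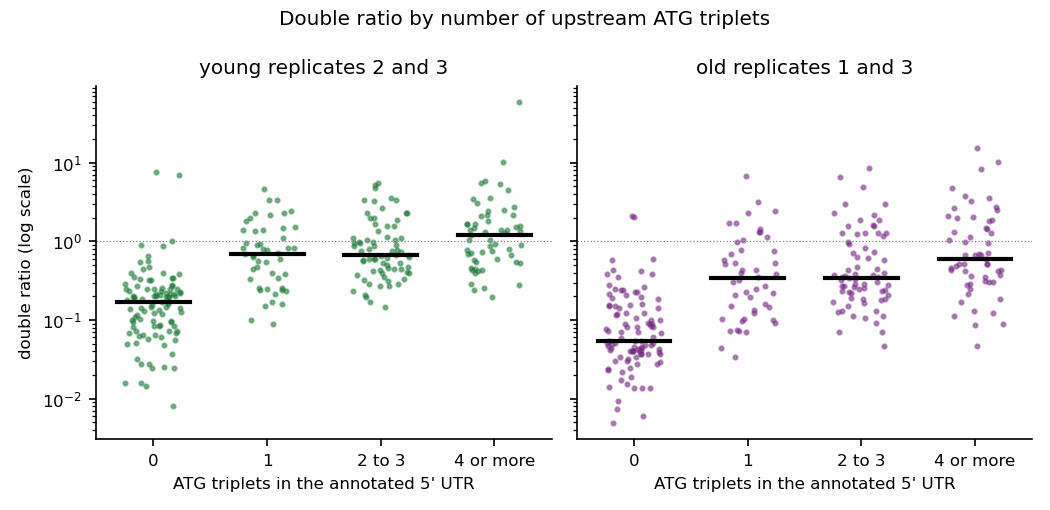
Double ratio (vertical, log scale) of members grouped by the number of ATG triplets in the annotated 5′ UTR, in young replicates 2 and 3 and in old replicates 1 and 3; points are members with a value above 0 and bars are medians over all members with a value. The median in old rises from 0.0545 without an ATG to 0.599 with 4 or more.

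Annotation limits the reading of single genes. In 113 members some annotated 5′ UTR bases belonged to the CDS of another isoform, and in 21 members they overlapped the CDS of another gene, 17 of them on the same strand. AZIN1, PTP4A1, PTP4A2 and EIF5 are among these 21. In 4 members the 5′ UTR bases overlapped an annotated small RNA gene on either strand. How reads over the start codon were assigned to 5′ UTR or CDS, and which annotation was used for the tables, were not given in the sources used here.

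The first question across conditions was whether less of the footprint signal lay in 5′ UTRs of old and ICM cells. Over all genes except the 5 left out, the 5′ UTR share of 5′ UTR and CDS footprints was 4.56%, 2.65% and 2.25% in young replicates 1 to 3. It was 1.81%, 2.08% and 0.90% in old, and 0.93%, 0.88% and 1.66% in ICM. Every young library lay above every old and every ICM library, while old and ICM libraries overlapped. The means were 3.15% ± 1.24, 1.60% ± 0.62 and 1.16% ± 0.44 (SD, n = 3). The members, chosen by young footprints, held 25.8% to 40.6% of these 5′ UTR footprints, so the comparisons with young are a description without a test. ICM and old differed by less than their spread (two-sided exact permutation p = 0.3, where 3 against 3 can give 0.1 at the lowest).

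Without the members and the 5 genes, the share was 4.09%, 2.06% and 1.69% in young, 1.49%, 1.95% and 0.711% in old, and 0.711%, 0.694% and 1.33% in ICM. Here old replicate 2 lay above young replicate 3, so young and old overlapped, while every ICM library lay below every young one. The double ratio of these other genes was 0.327, 0.146 and 0.0922 in young, 0.103, 0.142 and 0.0454 in old, and 0.0461, 0.0453 and 0.0670 in ICM. Old replicates 1 and 2 exceeded young replicate 3 on that scale. Over the 3′ UTRs of these genes it was 0.497, 0.0649 and 0.0444 in young, 0.108, 0.913 and 0.168 in old, and 0.0517, 0.0743 and 0.0979 in ICM. The 3′ UTR value thus exceeded the 5′ UTR value in every old and ICM library and in young replicate 1. The young footprints took the members out of this set, which can lower its young values.

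With all genes counted, the share averaged 6.06% ± 4.81 in young, 24.0% ± 25.1 in old and 4.08% ± 1.51 in ICM (SD, n = 3), and ICM vs old had p = 0.2 in the same exact test. In the mRNA-seq libraries of the same lysates, 12.4% to 17.9% of 5′ UTR and CDS reads lay in the 5′ UTR. Among the 286 members, the 5′ UTR share of footprints came to 6.46%, 4.82% and 4.30% in young, 2.95%, 2.56% and 1.60% in old, and 1.94%, 1.74% and 3.04% in ICM. Young libraries were again the highest, and old and ICM overlapped. The choice of members by young footprints can raise the young values, so no test was made on them.

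**Figure D3:**
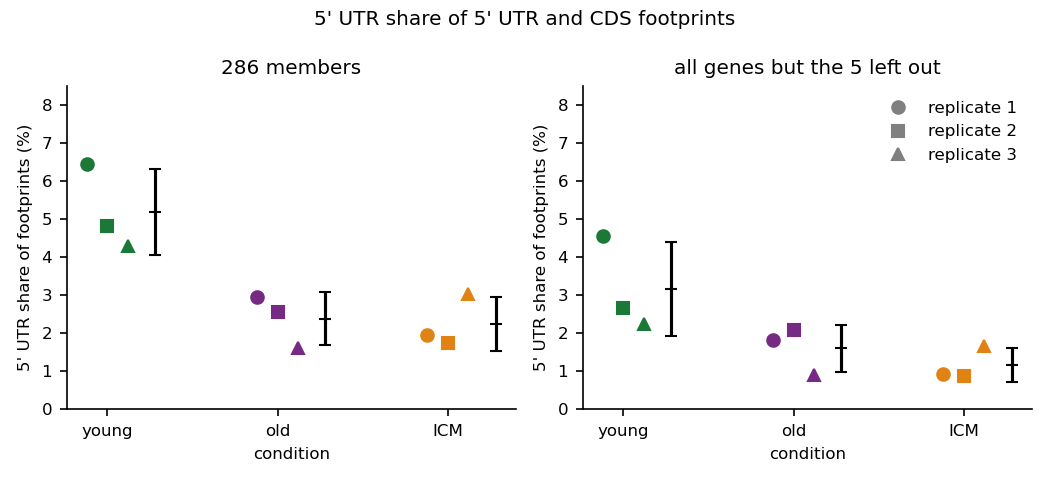
The 5′ UTR share of 5′ UTR and CDS footprints (vertical, percent) in each Ribo-seq library by condition, for the 286 members and for all genes except the 5 left out; symbols are replicates, and bars are the mean and SD of 3 libraries. Young libraries lie above old and ICM libraries in both panels, from 4.30% upward for the members, whose footprints are part of both panels.

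The members were then divided by their annotated sequence. For members without an upstream ATG, the pooled double ratio of a library was 0.250, 0.141 and 0.0988 in young, 0.0613, 0.0644 and 0.0299 in old, and 0.0354, 0.0386 and 0.0555 in ICM. For members with an upstream ATG it was 0.736, 0.635 and 0.499 in young, 0.486, 0.382 and 0.278 in old, and 0.245, 0.184 and 0.251 in ICM. In both sets young libraries were highest. For members with an upstream ATG all ICM values also lay below all old values, whereas without one they overlapped. On the mRNA-seq side, the 5′ UTR share of reads of members with an upstream ATG was 13.9% to 16.8% in ICM and 10.5% to 11.5% in old. Their footprint shares alone, 2.89% to 4.81% in ICM and 3.49% to 5.83% in old, overlapped.

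For the 9 uORF members, the pooled double ratio had a mean of 1.80 ± 0.361 over young libraries, 1.92 ± 0.271 over old and 1.64 ± 0.629 over ICM (SD, n = 3), and the replicates of the 3 conditions overlapped. For the 18 matrix and secreted members the means were 0.338 ± 0.0699, 0.110 ± 0.0518 and 0.0718 ± 0.0295. In this list the lowest young library, at 0.269, lay above the highest old library, at 0.156, and old and ICM overlapped. The cytoskeleton members had 0.0913 ± 0.0763, 0.0257 ± 0.0156 and 0.0160 ± 0.0013, and the TOP members 0.164 ± 0.160, 0.0408 ± 0.0201 and 0.0253 ± 0.0080. These are descriptions of lists whose members the young libraries selected, and the difference between lists was not tested.

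**Figure D4:**
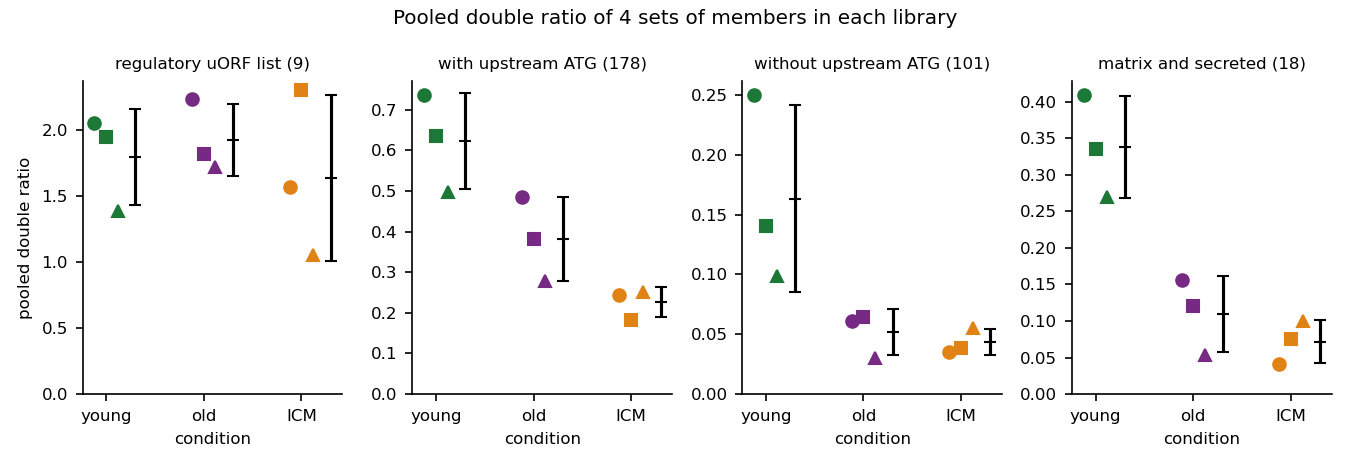
Pooled double ratio (vertical, no unit) of 4 sets of members in each library by condition; symbols are replicates, as circles, squares and triangles for replicates 1, 2 and 3, and bars are the mean and SD of 3 libraries. The uORF list lies between 1.05 and 2.30 in all conditions, while the matrix list lies between 0.269 and 0.409 in young and at most at 0.156 in old and ICM.

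Among matrix genes, FN1 (fibronectin) had 8, 49 and 105 5′ UTR footprints in young, 35, 0 and 4 in old and 1, 0 and 0 in ICM. Its CDS had 20483 footprints in young, 29179 in old and 1938 in ICM, so that its 5′ UTR share was 0.785%, 0.134% (0.0949% to 0.182%) and 0.0516% (0.0013% to 0.287%). LOX, the collagen cross-linking enzyme, had 5′ UTR shares of 3.14% in young, 0.898% in old and 0.271% in ICM. IGFBP5 had between 8.73% and 11.996% in the young replicates, 1.43% to 3.37% in old and 0.886% to 4.75% in ICM. Every young value of IGFBP5 exceeded every other one.

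The ranges of COL1A1 overlapped instead. Its 5′ UTR held 1121 footprints in young replicates 2 and 3, and its 5′ UTR share was 2.01%, 2.48% and 2.63% in young, 3.28%, 1.20% and 1.53% in old and 1.71%, 1.72% and 2.35% in ICM. The double ratio stood at 0.765 in young, 0.973 in old and 0.498 in ICM. COL1A2 had 0.404, 0.284 and 0.0857 in the same order, and COL3A1 0.723, 0.229 and 0.259. COL5A2 had 0.427, 0.129 and 0.222, on only 4 5′ UTR footprints in ICM. All 4 carry the ATG printed above, 17 bases before the main start.

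Whether single genes changed was tested with edgeR for the ratio of 5′ UTR to CDS footprints, in 178 genes past the filter, of which 159 were members. The filter kept genes with reads in both regions in enough libraries, and the remaining 127 members were not tested. In ICM vs young, 16 members were called at an adjusted p under 0.05, all lower in ICM, against 8.99% of all genes tested (16 of 178, all of them members). The young libraries chose the members, so nothing is read from this count. In old vs young, 1 member was called, against 1.69% of genes tested. In ICM vs old, whose groups hold no library of the rule, 1 member was called, against 1.12%. The young libraries still entered the filter, scaling and spread of this fit. Without young replicate 2 or young replicate 3, 0 members were called in ICM vs old. A fold of 2 simulated in 44 of the 178 genes was recovered in 2.3% of them, so most differences of that size would have been missed.

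The 16 members are described here without a test, since the young libraries that chose them also stand in this comparison. With young replicate 2 or 3 left out none of the 16 was called, and with ICM replicate 1 or 2 left out 2 or 4 members were. Of the 16, 5 had no 5′ UTR footprint in any ICM library, namely CITED2, a transcriptional co-regulator, ADM (adrenomedullin), IGFBP4, FGFR1 and RHOA. CITED2 had 71 5′ UTR and 681 CDS footprints in young, 51 and 1326 in old, and 0 and 152 in ICM. The 5′ UTR share of CITED2 was 9.44% in young and 3.70% in old, and 0 in ICM, where 3 counts over the group, the limit that a count of 0 allows, would be 1.97%. Among those with reads in ICM, CCDC80 had 245 5′ UTR and 2822 CDS footprints in young against 1 and 314 in ICM, or a share of 7.99% against 0.317% (0.008% to 1.76%). For IGFBP5 the ratio was 4.89 times as high in young as in ICM.

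MORF4L1, a chromatin protein of histone acetyltransferase complexes, was the member called higher in old than in young. It had 6, 21 and 71 5′ UTR footprints in young, 154, 4 and 60 in old and 27, 4 and 4 in ICM. Shares in the 5′ UTR were 27.3%, 6.23% and 7.73% in young, 17.0% to 21.0% in old and 13.3% to 20.9% in ICM. Young replicate 1, with 22 footprints in all, lay above every other library, so the groups overlap. The mRNA-seq share in the 5′ UTR was 2.27% to 6.52% in all libraries. The call was lost in 8 of 20 alternatives. These were DESeq2, no filter, the replicate block, the fits without young replicate 2, young replicate 3 or old replicate 3, and both fits on one library total for the 2 regions, where the log2 value was 1.19 in place of 2.32.

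DCN was the member called in ICM vs old. It encodes decorin, a small proteoglycan that binds collagen. Its 5′ UTR held 159, 1 and 21 footprints in old and 3, 4 and 2 in ICM, and its CDS 2031, 93 and 684 in old and 510, 218 and 109 in ICM. The share in the 5′ UTR was 7.26%, 1.06% and 2.98% in old and 0.58%, 1.80% and 1.80% in ICM, so that old replicate 2 lay below 2 of the ICM replicates. Between ICM and old, the ratio of DCN differed by a log2 value of −2.71 (SE 0.76), with an adjusted p of 0.0347 in edgeR, beside a median of −1.27 over all 178 genes. That median was −0.43 with both regions scaled by one library total. It was called in 4 of 20 alternatives and lost in 16, among them DESeq2 and the fit without the 5 genes left out by name, with log2 values from −4.07 to −1.70. Leaving out any single library other than young replicate 1 or old replicate 2 also removed the call, at −2.96 to −2.20.

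**Figure D5:**
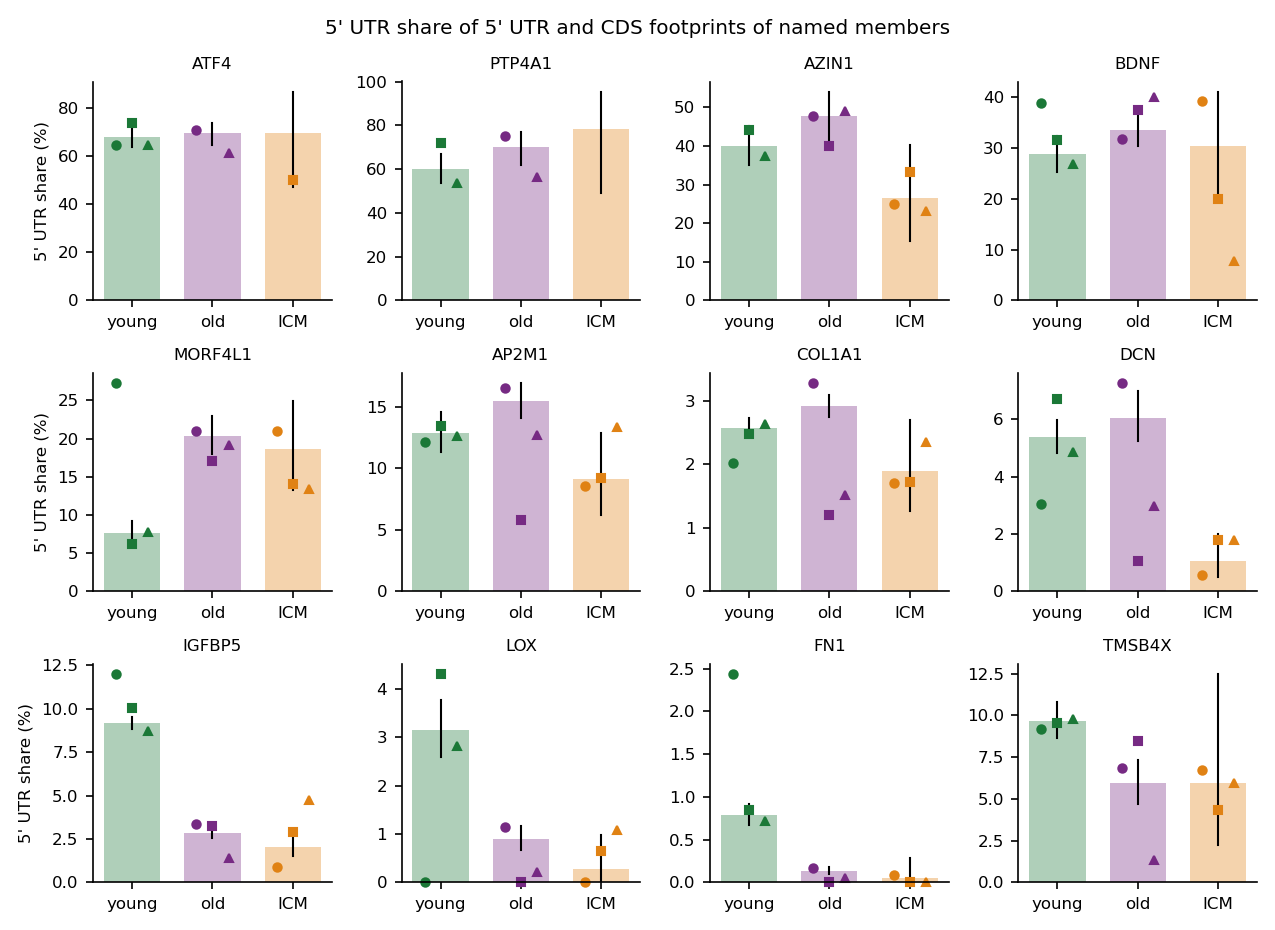
The 5′ UTR share of 5′ UTR and CDS footprints (vertical, percent, scaled per panel) of 12 members in each condition; bars pool 3 libraries, black lines are 95% exact binomial intervals that cover counting error only, and symbols are replicates 1, 2 and 3 (circle, square, triangle) with at least 10 footprints. ATF4 stays between 67.8% and 69.6%, IGFBP5 falls from 9.17% to 2.02%, and MORF4L1 has 7.67% in young and 20.4% in old.

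The RNA side was examined to see whether the 5′ UTR itself changed. The ratio of 5′ UTR to CDS reads in mRNA-seq was called in 7 of 284 tested members in ICM vs young, against 0.734% of 8860 genes. Of the 7, 2 were higher and 5 lower in ICM, against 0.248% and 0.485% of all genes. It was called in 3 members in old vs young, against 0.305%, with 1 higher and 2 lower, against 0.147% and 0.158%. In ICM vs old it was called in 4 members, against 0.406%, with 1 higher and 3 lower, against 0.135% and 0.271%. A minimum of young 5′ UTR reads was part of the rule, so the comparisons with young are given as a description. ACYP2, an acylphosphatase, had 82.4% to 87.8% of its mRNA-seq reads in the 5′ UTR in young, 60.5% to 67.6% in old and 56.6% to 61.0% in ICM. On the log2 scale the ratio fell by 1.73 in old (SE 0.24) and by 2.31 in ICM (SE 0.23). VPS53, a subunit of a Golgi tethering complex, had 89.4% to 90.7% in young, 75.3% to 85.3% in old and 78.5% to 80.8% in ICM. ATAD5, a clamp unloader in DNA replication, was higher in ICM than in young by 2.44 (SE 0.44).

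In ICM vs old, 4 members differed on the RNA side. MYLK, the myosin light chain kinase of contractile cells, had 10.379% to 12.003% of its reads in the 5′ UTR in old and 3.73% to 4.55% in ICM (log2 change −1.77, SE 0.18, edgeR adjusted p = 1.1e-05). PKNOX2, a homeobox factor, had 72.9% to 81.9% in old and 29.4% to 50.2% in ICM (−2.52, SE 0.43, edgeR adjusted p = 0.0055). FAM20C, a secretory pathway kinase, had 40.05% to 44.96% in old and 26.8% to 29.2% in ICM (−1.15, SE 0.17, edgeR adjusted p = 0.0011). ACTA2, smooth muscle α-actin, had 10.2% to 10.7% in old and rose to 18.1% to 26.5% in ICM (0.96, SE 0.14, edgeR adjusted p = 0.0010). In each of these 4 genes the replicates of the groups do not overlap. PKNOX2 counts were in part fractions. For the other 277 members tested in ICM vs young the RNA ratio was not called, and the median change over all 284 was −0.08.

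CDS footprints, which the rule did not use, were tested in 246 members. In ICM vs young 106 were called, against 26.6% of all 4643 genes tested, with 44 higher (13.7% of all genes) and 62 lower (12.9%). In old vs young 110 were called, against 36.3%, with 58 higher (19.3%) and 52 lower (17.0%). In ICM vs old 65 were called, against 13.4%, with 23 higher (5.79%) and 42 lower (7.62%). The called share of the 246 members was 43.1%, 44.7% and 26.4%. The median changes of the members were −0.13, −0.06 and −0.08 on the log2 scale. mRNA-seq reads over the 5′ UTR, CDS and 3′ UTR called 232 members in ICM vs young, against 71.0% of 13173 genes, with 88 higher (34.9%) and 144 lower (36.1%). In old vs young 216 were called, against 66.1%, with 109 higher (32.4%) and 107 lower (33.7%). In ICM vs old 219 were called, against 63.3%, with 74 higher (30.7%) and 145 lower (32.6%). In such bulk samples, fewer cells of a type and less RNA per cell cannot be told apart.

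Most matrix and cytoskeleton members fell in CDS footprints under ICM. The median of the 18 matrix members was −0.44 for ICM vs young, 0.42 for old vs young and −0.57 for ICM vs old, and that of the 8 cytoskeleton members −1.59, −0.11 and −0.99. Of 18 matrix members, 10 fell and 3 rose in ICM vs young, where 12.9% and 13.7% of all genes did. In old vs young 9 rose and 3 fell, against 19.3% and 17.0% of all genes. In ICM vs old 10 matrix members fell and none rose, against 7.62% and 5.79%. TIMP3, an inhibitor of matrix metalloproteinases, rose by 2.12 in old vs young (SE 0.19), with an adjusted p of 8.2e-11 in edgeR. Its difference between ICM and old was −3.80 (SE 0.25), with an adjusted p of 7.1e-14 in edgeR. Of 8 cytoskeleton members, 7 fell in ICM vs young (12.9% of all genes), and the actin-binding TAGLN was among them at −2.61 (SE 0.25). The 9 TOP members all fell in mRNA-seq against young, under ICM (36.1% of all genes) and in old cells (33.7%). In CDS footprints 3 of them were called lower under ICM, against 12.9% of all genes, and 6 in old, against 17.0%. FGF5, a growth factor, had the largest fall in ICM vs young among called members, at −4.51 (SE 0.87).

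Of the 4 uORF members tested, ATF4 and EIF5 fell in CDS footprints in ICM vs young, while IBTK and AZIN1 had 0.05 and 0.30. For ATF4 the log2 value was −2.01 (SE 0.61), with an adjusted p of 0.0125 in edgeR, on 7 CDS footprints in ICM, beside −1.02 in mRNA-seq (SE 0.09). In old vs young its CDS footprints had a log2 value of −0.61 (SE 0.30), with an adjusted p of 0.113 in edgeR. Among 3 members listed as ATF4 targets, SLC7A11, the cystine transporter, rose by 1.55 in ICM vs young (SE 0.25), with an adjusted p of 9.1e-06 in edgeR. WARS, a tRNA synthetase, fell by 0.80 (SE 0.22), and PSPH, of serine synthesis, had −1.46 (SE 0.63) and was not called. All 3 members of the NRF2 list, TXNRD1, SLC7A11 and FTH1, rose in CDS footprints and in mRNA-seq in both ICM comparisons. Among all genes tested in ICM vs young, 13.7% rose in CDS footprints and 34.9% in mRNA-seq, with 5.79% and 30.7% in ICM vs old. FTH1, the ferritin heavy chain whose 5′ UTR holds an iron-responsive element, rose by 1.85 in CDS footprints in ICM vs young (SE 0.24), with an adjusted p of 3.3e-07 in edgeR.

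Of FTH1 footprints, 25.6% (22.0% to 29.6%) lay in the 5′ UTR in young, 20.9% (18.05% to 23.99%) in old and 18.6% (14.4% to 23.5%) in ICM. All of these intervals overlap, but they pool libraries and cover counting error only. For FTH1 and EPAS1 together, the share was 10.7%, 11.7% and 29.4% in young replicates 1 to 3 and 11.3%, 29.8% and 20.7% in old. FTH1 counts were in part fractions. The double ratio of FTH1 was 0.647, 0.389 and 0.389. EPAS1, another mRNA with such an element, had 1.81, 0.786 and 0.667. HMGB1, bound by inflachromene, was also a member, with 33 5′ UTR footprints in young replicates 2 and 3 and none in ICM. The ICM libraries held only 40.2 CDS footprints of HMGB1, so the interval of its ICM share, 0% to 8.81%, holds its young share of 3.65%. In CDS footprints HMGB1 had log2 values of −1.73 (SE 0.29) for ICM vs young and −1.57 (SE 0.21) for old vs young, with adjusted p-values of 2.0e-05 and 3.3e-07 in edgeR. TMEM47, a membrane protein, had the largest rise in CDS footprints among members in ICM vs young, 2.91 (SE 0.21), while its 5′ UTR held 37 footprints in young and 3 in ICM.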

How the data were processed

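Ribo-seq and mRNA-seq libraries of young, old and ICM cells (18 in all, 3 replicates per condition and assay) were read as the authors deposited them, as tables of estimated counts per gene symbol and region, not scaled to depth. Between 14.1% and 23.2% of non-zero values were not whole. The submitters' processing notes name STAR 2.6.0c, featureCounts, DESeq2, deepTools and GRCh37, without saying which was used for these tables. Per the study's methods, lysates held cycloheximide and each was divided between the assays. Groups came from the sample titles.

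The members and the gene lists were chosen with earlier results of these data known, as was the rule for named genes. That rule took the 10 members with most 5′ UTR footprints, the 10 highest and 5 lowest double ratios among members with at least 100, the largest called changes per comparison (5 in each direction for the footprint ratio, 2 otherwise), members in a list, and those at the edge of the rule. CCDC80, and in the closing section PTPDC1, C19orf48, ELL2, ZDHHC7 and GPBP1L1, were chosen after their values were seen.

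Counts were rounded, filtered with filterByExpr and tested by the quasi-likelihood functions (glmQLFit, glmQLFTest) of edgeR 4.0.16, run in R 4.3.3 (TMM scaling, two-sided, Benjamini-Hochberg over all genes tested, call at an adjusted p under 0.05), with all 9 libraries of an assay in each fit. For ratios, 5′ UTR and CDS reads were separate columns scaled by region, with the library as block and the term of region by condition tested. Each SE is the standard error of a log2 fold change. Shares over libraries were compared with exact permutation tests. Binomial intervals are exact (Clopper-Pearson) and, like the limit of 3 counts for a count of 0, cover counting error only, since PCR reads are not independent molecules. The fits were tested on simulated counts. Folds of 2 in 200 genes were recovered in 52.5% for the mRNA-seq ratio, 45.5% for CDS footprints and 92% for mRNA-seq, for ICM vs young. Upstream ATG triplets were found in GENCODE release 44 on GRCh37, in which 279 of 286 symbols had a transcript, 276 of them MANE Select. Sequences are from that release. RLE scaling, DESeq2 1.42.0, other filters, a replicate block, leaving out each library, other scalings and other sample sets were tried as alternatives.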

Additional observations from a re-analysis of the deposited data

Results flagged for a closer look

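In 5 results the effect of ICM differed from that of old, by the test of the difference between them (edgeR, both against the same young libraries). For the ratio of 5′ UTR to CDS footprints this was DCN, with −2.71 on the log2 scale in ICM vs old, on 9 5′ UTR footprints in ICM. For the ratio of 5′ UTR to CDS reads in mRNA-seq these were FAM20C at −1.15, MYLK at −1.77, PKNOX2 at −2.52 and ACTA2 at 0.96. Of these, MYLK was called in all 15 alternatives, FAM20C, PKNOX2 and ACTA2 in 14 of 15 each, and DCN in 4 of 20. No cause was tested. Groups held 3 libraries, too few to test single libraries as outliers.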

How the results depend on the processing

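Counts below are of called members. For the ratio of 5′ UTR to CDS footprints, the 16 calls in ICM vs young became 8 with DESeq2, 0 with no filter and 9 with both regions scaled by one library total (10 when the 5 genes left out were also removed), and 21 without young replicate 1 and old replicate 2. The single call in old vs young became 0 with DESeq2 and with no filter and 3 in the deeper libraries alone, while on one library total it was 1 lower member in place of 1 higher, and that in ICM vs old became 0 with RLE scaling, DESeq2, no filter, one library total, without the 5 genes under either scaling, with only the compared groups and with mRNA-seq reads as denominator, and 4 in the deeper libraries alone or without young replicate 1 and old replicate 2. The cause was not tested. The median change of all 178 genes was −1.12, −0.19 and −1.27 in ICM vs young, old vs young and ICM vs old, and −1.31, −1.13 and −0.43 on one library total.

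For the mRNA-seq ratio the 7, 3 and 4 calls in ICM vs young, old vs young and ICM vs old became 13, 8 and 8 with no filter and 4, 1 and 2 on one library total. For CDS footprints the 110 calls in old vs young became 62 with DESeq2. A replicate block gave 9, 0 and 0 calls for the footprint ratio and 69 for CDS footprints in old vs young, and moved no other count by over 1.5 times. The same replicate numbers correlated with r of −0.056 to 0.103 between conditions, and the main fits used no pairing. With shallow Ribo-seq libraries among them, such correlations cannot show whether samples were paired. Leaving out each library gave 0 to 18, 0 to 3 and 0 to 2 calls for the footprint ratio, 3 to 8, 1 to 3 and 3 to 5 for the mRNA-seq ratio, 65 to 123, 56 to 125 and 41 to 71 for CDS footprints, and 220 to 242, 205 to 214 and 201 to 221 for mRNA-seq. CDS counts moved most without young replicate 2, young replicate 3 or ICM replicate 1 in ICM vs young (65, 65 and 66), without young replicate 2 or 3 or old replicate 1 or 3 in old vs young (56, 62, 65 and 72), and without old replicate 1 in ICM vs old (41). The 5′ UTR share of all genes in old exceeded that in young by 17.9 percentage points, but without the 5 genes it was −1.56. A minimum of 20 or 50 reads gave 549 or 135 members.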

Other observations

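Among the members with the highest double ratios but under 100 5′ UTR footprints were PTPDC1 at 7.52, C19orf48 at 6.40, IBTK at 5.90, ELL2 at 5.55, ZDHHC7 at 5.47 and GPBP1L1 at 5.33 in young replicates 2 and 3. In old replicates 1 and 3 these were 2.02 for PTPDC1, no ratio for C19orf48 (no CDS footprint), 4.77 for IBTK, 3.02 for ELL2, 2.69 for ZDHHC7 and 2.02 for GPBP1L1. ELL2 encodes an elongation factor of RNA polymerase II and ZDHHC7 a palmitoyltransferase. BTG1, an antiproliferative gene, and TNFRSF10B, a death receptor, both on the p53 list, had 1.98 and 1.41 in young against 0.329 and 0.433 in old. CCNI, the only member on the cell cycle list, had 0.762, 0.459 and 0.479 in young, old and ICM. JUN, the only member on the immediate early list, had 0.210, 0.0539 and 0.0319, and HMGA1 had 0.180, 0.0889 and 0.117. EIF4G2, known for starting translation at a codon other than ATG, had 0.634, 0.516 and 0.130. Few 5′ UTR footprints stand behind these ICM values, with 6 for CCNI, 3 each for JUN and HMGA1, and 1 for EIF4G2. The ICM share of EIF4G2 was 1.01% (0.0256% to 5.50%), an interval that holds its young share of 4.98%.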
